A study of Mus musculus and Homo sapiens with 4 samples.

Results

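EEF1A1, EEF2 and RPLP0 encode central parts of the elongating ribosome, and their messages are textbook members of the TOP class. The footprints described here belong to 9 listed transcripts of these genes: 3 of human EEF1A1, 1 of EEF2, 2 of RPLP0 and 1 each of mouse Eef1a1, Eef2 and Rplp0. They were chosen by identifier. All 9 were present among the 288251 transcript entries of the series, 3 of 93380 in mouse and 6 of 194871 in human. The gene names came with the list of identifiers. The name tables used here hold 0 of the transcript identifiers in the files, so neither these names nor marker genes of the cell lines could be checked.

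Ribosome footprints, the pieces of RNA that a ribosome shields from RNase I, were sequenced from 4 libraries. One pair came from E14 mouse embryonic stem (ES) cells of 129/Ola background, cultured with LIF and without feeders, which were exposed for 60 s to cycloheximide at 100 µg/ml or for 60 s to emetine, whose dose the labels do not give. HEK cells, an established line derived from human embryonic kidney, gave the other pair and were kept in DMEM with 10% FBS. The input library was made after size exclusion chromatography, and for the bound library assembled ribosomes were then captured on streptavidin through a tag on the large subunit. The labels give no elongation inhibitor for the HEK cells and do not say which large-subunit protein carries the tag. The pairs address whether footprints respond to the inhibitor and whether they travel with the large subunit. Each group had 1 library. No test of the conditions is possible, so differences are described with 95% exact intervals that cover counting error only.

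TOP messages begin with a cytidine at the cap followed by an uninterrupted run of pyrimidines. The class includes ribosomal proteins and elongation factors, and growth signals acting through mTOR set how much of it is translated, with LARP1 binding the capped pyrimidine run. EEF1A1 delivers aminoacyl-tRNA to the ribosome, EEF2 drives the translocation step that follows peptide bond formation, and RPLP0 is the base of the ribosomal stalk that recruits both factors. Cycloheximide binds the large subunit and emetine the small subunit, and both arrest elongation.

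The mouse sequences around the annotated starts are shown because the TOP element, where present, lies at the first base of the leader. Any relation of these sequences to the leader reads described below was not tested. Each line holds 30 bases from the RefSeq promoter table (GRCm38.p6, the assembly of mm10). Capitals mark the longest run of C and T that starts with C within 50 bases on either side of the annotated first transcribed base, counted as +1, on the strand of the gene.
Eef1a1: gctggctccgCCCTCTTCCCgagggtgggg
Eef2: acgtcagcggtCTCTTCCgccgcagccgcc
Rplp0: gaccgcctggttCTCCTataaaaggcacac
The Eef1a1 stretch is chr9:78481710-78481739 on the minus strand, and its run of 10 pyrimidines begins at position -5. The Eef2 stretch is chr10:81176635-81176664 on the plus strand, with a run of 7 beginning at +16. For Rplp0 it is chr5:115559468-115559497 on the plus strand, with a run of 5 beginning at +14. The Eef2 and Rplp0 stretches begin after the annotated first base. The Eef1a1 run spans that base but begins before it. Whether the RefSeq first bases are the capped ends of these messages was not tested, so none of the 3 runs is placed at the cap or away from it here. Such runs are common: of 32851 promoter windows of the same length, 77.1% hold one of at least 5 bases, 40.7% one of at least 7 and 14.4% one of at least 10. The letters TATAA occurred on the gene strand in the windows of all 3 genes, at +26 in Eef1a1, -15 in Eef2 and +18 in Rplp0, where they share 1 base with the marked run. They occur on the gene strand in 6.81% of all such windows and on either strand in 9.26%. In Eef1a1 and Rplp0 they therefore lay downstream of the RefSeq start. RefSeq places Eef1a1 at 78478453 to 78481724 of chromosome 9, Eef2 at 81176631 to 81182509 of chromosome 10 and Rplp0 at 115559467 to 115563729 of chromosome 5.

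The elongation factors were among the most abundant coding regions in every library. Counts assigned to coding regions summed to between 7631840 (HEK input) and 163107357 (cycloheximide). Isoforms repeat each other's counts, so these sums count some reads more than once, and the depth in reads is unknown. The coding region of Eef1a1 held 626242 reads with cycloheximide and 245520 with emetine. These were 0.384% and 0.312% of all coding counts, and it ranked 5th and 6th of 43857 coding regions. Mouse Eef2 held 167122 and 73479 coding reads, which were 0.102% and 0.0934% of the counts, at ranks 98 and 93. Mouse Rplp0 held 48711 and 20546 coding reads, or 0.0299% and 0.0261%, at ranks 473 and 516. All 3 shares were lower with emetine.

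In HEK cells EEF1A1 held 14349 coding reads before capture and 30620 after it, 0.188% and 0.199% of coding counts, at ranks 10 and 9 of 75470. EEF2 held 6056 and 12046 coding reads, 0.0794% and 0.0782%, at ranks 66 and 64. RPLP0 held 847 and 1717 coding reads, 0.0111% in both libraries, at ranks 1491 and 1575. The shares of the 3 human genes were thus nearly the same before and after capture. Coding lengths were not used here, so coding levels are not compared between genes. A ratio of 2 genes can still be followed between libraries, because length cancels. Eef1a1 had 3.75 coding reads per Eef2 coding read with cycloheximide and 3.34 with emetine, and EEF1A1 had 2.37 per EEF2 read before capture and 2.54 after it. For Rplp0 the values were 0.291 and 0.28, and for RPLP0 0.14 and 0.143.

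The listed human isoforms differ only in their leaders. The 3 EEF1A1 transcripts have 1 coding count, 1 trailer count and 1 remainder in each library, and the 2 RPLP0 transcripts likewise, so human coding values rest on 3 different counts. In the input the EEF1A1 leaders held 33 reads in ENST00000309268.6, 18 in ENST00000316292.9 and 10 in ENST00000331523.2. In the bound library they held 57, 27 and 17, in the same order of isoforms. The 2 RPLP0 leaders held 12 (ENST00000228306.4) and 5 (ENST00000392514.4) reads in the input and 25 and 3 after capture. The whole-transcript counts of the isoforms differ by exactly these leader differences, for example 40 reads between the highest and lowest EEF1A1 isoform in the bound library. Another human coding region outside the list repeats the RPLP0 counts exactly. EEF1A1 has many processed pseudogenes, and how reads with several matches were treated was not given in the sources used here. The absolute counts of these genes are therefore uncertain.

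Capture of the large subunit left the coding reads of all 3 genes close to the median coding region. Ratios were scaled so that the median of coding regions with 100 or more summed reads per pair has a log2 ratio of 0, which puts the bound library at 1.99 times the depth of the input. The scaled ratio of bound over input was 1.07 for EEF1A1 (interval 1.05 to 1.09), 1.0 for EEF2 (0.97 to 1.03) and 1.02 for RPLP0 (0.939 to 1.11). Of the 3 genes, 0 were at least 2-fold higher or lower, beside 0.0528% of 26492 coding regions past 2-fold upward and 0.861% downward. A count of 0 among 3 is near that background.

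Abundant coding regions lay slightly above the median after capture, and the 3 genes lay slightly below coding regions of similar abundance. This was read against coding regions whose summed reads were within 2-fold of the gene's own. For EEF2 the log2 ratio was 0.00068, against a median of 0.12 over 236 similar coding regions with quartiles at 0.051 and 0.18, and 12.7% of them lay below it. For EEF1A1 it was 0.10, against a median of 0.14 over 38 with quartiles at 0.11 and 0.19, and 21.1% lay below. RPLP0 stood at 0.028, against 0.080 over 2797, within the quartiles of -0.026 and 0.16. These differences from the similar medians, -0.12, -0.039 and -0.052 on the log2 scale, compare with counting intervals of the log2 ratio from -0.044 to 0.045 for EEF2, 0.073 to 0.131 for EEF1A1 and -0.092 to 0.148 for RPLP0. The interval of RPLP0 includes the median of its similar coding regions, and those of EEF1A1 and EEF2 lie below theirs. For EEF1A1 this depends on the window: within 4-fold the difference was -0.025, and its interval includes that median.

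**Figure D1:**
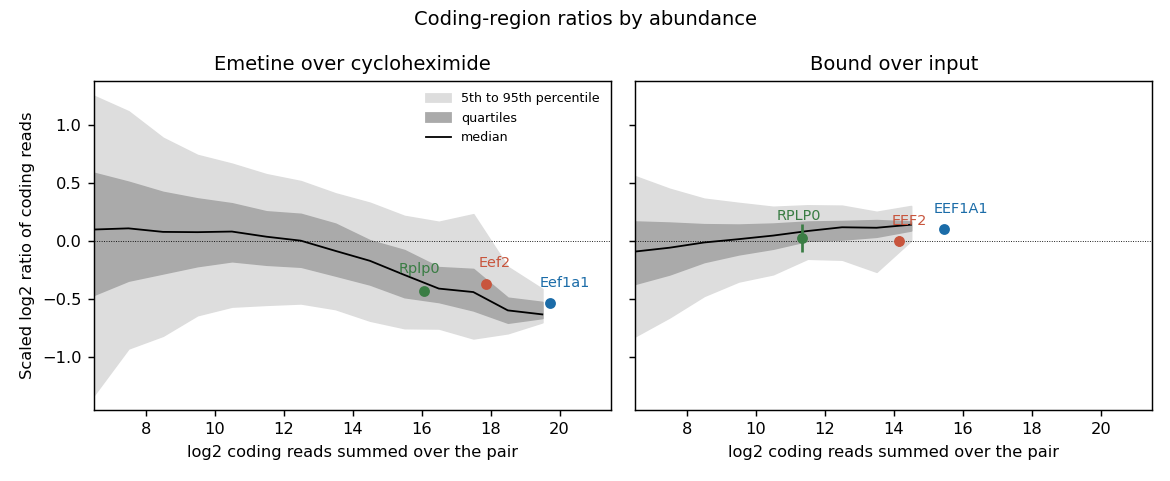
Scaled log2 ratio of coding reads (vertical) against the log2 of coding reads summed over the pair (horizontal), for emetine over cycloheximide in mouse ES cells and bound over input in HEK cells. The line and grey bands give the median, the quartiles and the 5th to 95th percentile of all coding regions in bins of doubled abundance with at least 20 members, and points are the 3 genes with 95% counting intervals; the mouse genes follow the downward course of abundant coding regions, and the human genes lie near 0.

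With emetine the coding regions of the 3 mouse genes were lower than the median coding region, by amounts that abundant coding regions shared. By the median coding region the cycloheximide library was 1.76 times as deep as the emetine library. The coding region of Eef1a1 was 1.45-fold lower with emetine (interval 1.44 to 1.46), that of Eef2 1.29-fold lower (1.28 to 1.31) and that of Rplp0 1.35-fold lower (1.33 to 1.37). None of the 3 was past 2-fold in either direction, beside 1.46% of 28604 coding regions past 2-fold upward and 1.19% downward. Each lay within the quartiles of coding regions of similar summed reads. For Eef1a1 the log2 ratio was -0.54, against a median of -0.63 over 62 with quartiles at -0.67 and -0.51. Eef2 stood at -0.37, against -0.50 over 108 with quartiles at -0.62 and -0.36. Rplp0 stood at -0.43, against -0.33 over 1060 with quartiles at -0.52 and -0.12. Both elongation factors were thus a little above, and Rplp0 a little below, the similar median.

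The leaders of the mouse genes went the other way. The 5′ leader is the untranslated part before the coding region. Eef1a1 had 2713 leader reads with cycloheximide and 3021 with emetine, more in number although the second library was shallower. Per 100 coding reads this was 0.433 (interval 0.417 to 0.45) and 1.23 (1.19 to 1.28). Eef2 had 2578 and 3553 leader reads, 1.54 (1.48 to 1.60) and 4.84 (4.67 to 5.0) per 100 coding reads. Rplp0 had 2069 and 1597 leader reads, 4.25 (4.06 to 4.44) and 7.77 (7.38 to 8.18) per 100 coding reads. In all 3 the intervals of the 2 libraries do not overlap.

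Leader reads per coding read were 2.84-fold higher with emetine in Eef1a1 (interval 2.70 to 2.99), 3.13-fold in Eef2 (2.98 to 3.30) and 1.83-fold in Rplp0 (1.71 to 1.96). The lower coding counts account for only part of these ratios by arithmetic: scaled to the median coding region, the leader reads themselves were 1.96-fold higher in Eef1a1, 2.42-fold in Eef2 and 1.36-fold in Rplp0. Against its own coding region the leader was at least 2-fold higher in 2 of the 3 genes, Eef1a1 and Eef2, and at least 2-fold lower in 0. Of 10499 leaders with at least 100 reads, 19.1% were past 2-fold upward and 3.42% downward. The median of those leaders was 1.31-fold higher. Abundant messages had larger values, and this narrows the contrast. Over leaders of coding regions with similar reads the median was 2.58-fold for Eef1a1 (25 leaders, quartiles 2.26 and 3.06), 1.86-fold for Eef2 (72 leaders, 1.47 and 2.61) and 1.57-fold for Rplp0 (757 leaders, 1.20 and 2.15). Eef2 alone lay outside its quartiles: 7 of the 72 similar leaders had a higher value. Eef1a1 and Rplp0 lay within theirs.

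Per coding read, the mouse leaders also held more reads than the median of transcripts with similar coding reads. Leader and coding lengths were not used, so these ranks make no allowance for length. With cycloheximide, 83.3% of 48 transcripts with similar coding reads had fewer leader reads per coding read than Eef1a1, and their median was 0.0154 per 100. For Eef2 it was 68.9% of 103, with a median of 0.345, and for Rplp0 78.7% of 919, with a median of 0.995. With emetine the shares below were 87.2%, 81.3% and 82.6%.

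**Figure D2:**
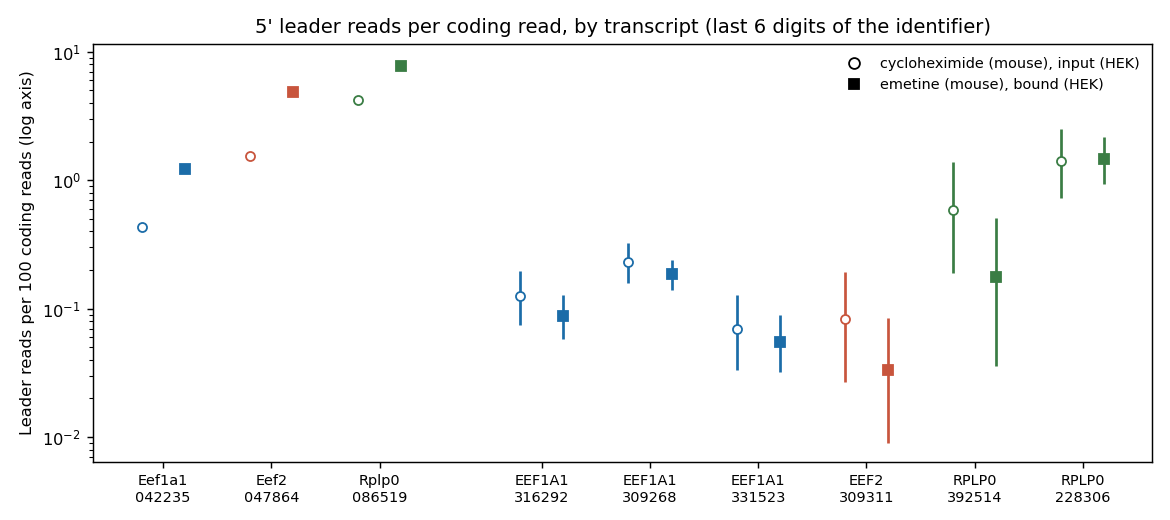
Leader reads per 100 coding reads on a log axis for each of the 9 transcripts, named by gene and the last digits of the identifier, with 95% counting intervals. Open circles are cycloheximide (mouse) or input (HEK) and filled squares emetine or bound; the 3 mouse leaders are higher with emetine, whereas the intervals of each HEK pair overlap.

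In HEK cells few footprints lay on the leaders of these genes. EEF1A1 had between 0.0697 leader reads per 100 coding reads in the isoform with fewest and 0.23 in the isoform with most in the input, and between 0.0555 and 0.186 in the bound library. EEF2 had 5 leader reads in the input library and 4 after capture, 0.0826 (interval 0.0268 to 0.193) and 0.0332 (0.00905 to 0.085) per 100 coding reads. For RPLP0 the isoform ENST00000228306.4 had 1.42 (0.729 to 2.49) and 1.46 (0.94 to 2.16). Its other isoform, ENST00000392514.4, had 0.59 (0.191 to 1.38) and 0.175 (0.036 to 0.511). Bound over input, leader reads per coding read changed by factors from 0.296 to 1.03 over the 6 human transcripts, and the counting interval included 1 in all 6. No difference was detectable at this depth. The 6 leaders had fewer than 100 reads and were not called; of 930 leaders with at least 100 reads, 3.44% were past 2-fold downward and 0.753% upward. Of transcripts with similar coding reads, between 36.1% and 70.9% had fewer leader reads per coding read in the input, and between 31.7% and 78.4% after capture, again without allowance for length. The highest of these shares belonged to RPLP0 ENST00000228306.4, whose 1.46 in the bound library lay above the upper quartile of 1.16 of its similar transcripts; the other 5 transcripts lay within the quartiles in both libraries.

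Trailer reads were few beside coding reads in both species. The 3′ trailer is the untranslated part after the coding region, where elongating ribosomes are not expected. Eef1a1 had 1277 trailer reads with cycloheximide and 858 with emetine, 0.204 and 0.349 per 100 coding reads, 1.71-fold higher (interval 1.57 to 1.87). Eef2 had 161 and 227, or 0.0963 and 0.309 per 100, 3.21-fold higher (2.61 to 3.95). Rplp0 had 74 and 56, or 0.152 and 0.273 per 100, 1.79-fold higher (1.24 to 2.57). Against its own coding region 1 of the 3 trailers, that of Eef2, was at least 2-fold higher, beside 22.0% of 5467 trailers, and 0 were 2-fold lower, beside 3.46%.

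Set beside trailers with at least 100 summed reads from similarly abundant coding regions, the Eef1a1 trailer had one of the smallest differences between the drugs. Of 62 similar coding regions, 19 had such a trailer. Whether this minimum favours trailers that were higher with emetine was not tested. The median of the 19 similar trailers with at least 100 reads was 3.27-fold higher with emetine, with quartiles at 2.38 and 3.81, and 18 of them had a higher value than Eef1a1. Per coding read, however, the Eef1a1 trailer held more reads than most: 98.2% of 55 similar transcripts had fewer with cycloheximide, and their median was 0.00784 per 100. With emetine the share below was 96.4% of 55. For Eef2 it was 76.4% of 106 with cycloheximide and 82.6% of 115 with emetine, and for Rplp0 66.6% of 935 and 58.4% of 1123. Both elongation factors lay above the upper quartile with either drug. These ranks make no allowance for trailer or coding length, and rows with identical counts were not merged. The similar medians were 2.83-fold for Eef2 (51 trailers) and 2.49-fold for Rplp0 (391 trailers), with quartiles of 1.70 to 3.43 and 1.60 to 3.53 that hold both genes.

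In HEK cells the trailer of EEF1A1 held 11 input and 18 bound reads, and that of EEF2 held 18 and 12. Per 100 coding reads EEF2 had 0.297 (interval 0.176 to 0.47) in the input and 0.0996 (0.0515 to 0.174) in the bound library, 2.98-fold lower (1.36 to 6.79). These 30 reads in all are under the minimum of 100 used for the other trailers, so the fold has no comparison set of folds. Of the 1687 trailers that met this minimum, 1.07% were past 2-fold downward and 1.19% upward. Within each library EEF2 can be set beside transcripts with similar coding reads. Their median was 0.0648 per 100 over 214 in the input and 0.0291 over 227 in the bound library, also lower after capture. Of these, 83.2% and 79.3% lay below EEF2, without allowance for length. Whether the EEF2 difference exceeds theirs was not tested. For EEF1A1 the trailer was 1.30-fold lower per coding read, with an interval of 0.556 to 2.92 that includes 1. Fewer trailer reads per coding read than in EEF1A1 were found in 73.5% of 34 similar transcripts in the input. In the bound library it was 90.0% of 40. The medians of these sets were 0.0338 and 0.0142 per 100. RPLP0 had 0 trailer reads in both libraries. The lower quartile of transcripts with similar coding reads was also 0 in both. Their medians were 0.137 per 100 over 2767 in the input and 0.0504 over 2701 in the bound library. For RPLP0 a floor of 3 reads would be 0.354 per 100 coding reads before capture and 0.175 after it, and the exact intervals reach 0.436 and 0.215.

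Most reads outside the coding regions of these genes lay in none of the 3 counted parts. This remainder is the whole-transcript count less the coding region, leader and trailer, and where on the transcript it lies is not given in the files. Eef1a1 had 69177 such reads with cycloheximide and 57125 with emetine, 9.89% and 18.6% of the transcript's reads. Eef2 had 7858 and 5975, or 4.42% and 7.18%. Rplp0 had 9372 and 3252, or 15.6% and 12.8%. The remainder was thus a larger share with emetine in the elongation factors and a smaller share in Rplp0.

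Relative to coding reads, the remainder was 2.11-fold higher with emetine in Eef1a1 (interval 2.08 to 2.13) and 1.73-fold higher in Eef2 (1.67 to 1.79), but 1.22-fold lower in Rplp0 (1.16 to 1.27). It was at least 2-fold higher in 1 of the 3 genes, Eef1a1, beside 15.8% of 14600 transcripts, and 2-fold lower in 0, beside 2.83%. The similar medians were 1.90-fold over 50 transcripts, 1.53-fold over 96 and 1.5-fold over 949, in the order Eef1a1, Eef2, Rplp0. Eef1a1 and Eef2 lay within the quartiles of these sets, and Rplp0 did not: 7.48% of its 949 similar transcripts had a lower value. In level the Rplp0 remainder was high, 19.2 per 100 coding reads with cycloheximide, against a similar median of 6.29, with 86.4% below. With emetine it was 15.8, against 7.01, with 72.8% below. For Eef1a1 the shares below were 81.2% and 76.6%, and for Eef2 30.4% and 38.3%. The Rplp0 leader and remainder therefore differed in direction between the drugs, which those of the elongation factors did not.

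**Figure D3:**
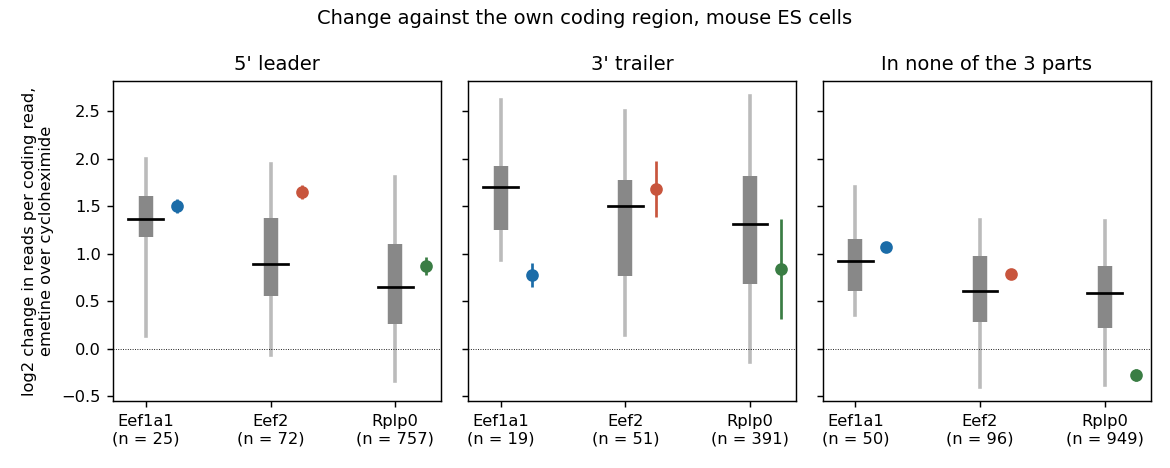
Log2 change in reads per coding read, emetine over cycloheximide, for the leader, the trailer and the reads in none of the 3 parts of the mouse genes (coloured points with 95% counting intervals). Grey bars give the quartiles, thin lines the 5th to 95th percentile and black lines the median of transcripts with similar coding reads. These had at least 100 summed reads in that part, and their number stands under each gene. The Eef2 leader lies above its bar, and the Eef1a1 trailer and the Rplp0 remainder lie below theirs.

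Most reads not counted in the coding region belong to the remainder, so their share does not measure reads in untranslated parts. Summed over leader, trailer and remainder, this share went from 10.5% (interval 10.4 to 10.5) with cycloheximide to 19.9% (19.8 to 20) with emetine in Eef1a1. In Eef2 it went from 5.96% (5.85 to 6.07) to 11.7% (11.5 to 11.9). In Rplp0 the values were 19.1% (18.8 to 19.4) and 19.3% (18.8 to 19.8), with overlapping intervals, a larger leader share standing against a smaller remainder. In HEK cells, EEF1A1 (ENST00000316292.9) had 3.76% (3.46 to 4.08) not counted in the coding region in the input and 2.83% (2.65 to 3.02) in the bound library. EEF2 had 2.43% (2.06 to 2.85) and 2.5% (2.23 to 2.79), and RPLP0 5.99% (4.53 to 7.75) and 4.93% (3.98 to 6.03) in ENST00000392514.4 and 6.72% (5.18 to 8.55) and 6.07% (5.02 to 7.27) in ENST00000228306.4. The EEF1A1 difference lay in the remainder, 532 input and 848 bound reads, 1.34-fold lower per coding read (1.20 to 1.5). As a ratio of bound over input this was 0.747, against a median of 0.856 over 34 similar transcripts with quartiles at 0.709 and 0.924. The EEF2 remainder, 128 and 293 reads, had a ratio of 1.15 (0.93 to 1.43), and 92.0% of 201 similar transcripts had a lower one. Against their coding regions 0 of the 3 human remainders were past 2-fold, beside 0.506% of 2370 transcripts upward and 1.81% downward.

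**Figure D4:**
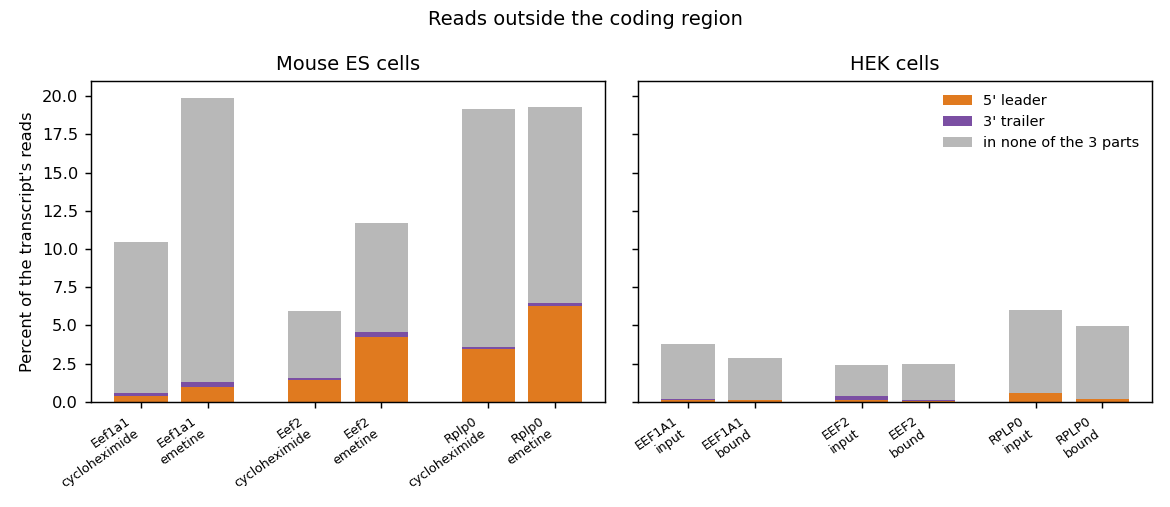
Percent of each transcript's reads that lay in the 5′ leader, the 3′ trailer or none of the 3 parts, stacked, in the 4 libraries (for human genes with several isoforms, EEF1A1 ENST00000316292.9 and RPLP0 ENST00000392514.4). The total goes from 10.5% to 19.9% in Eef1a1 and from 5.96% to 11.7% in Eef2 with emetine, is 19.1% and 19.3% in Rplp0, and lies between 2.43% and 5.99% in the HEK bars of the isoforms plotted.

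The coding regions most like these genes over the 2 libraries of a species were found by distance between log2 reads, leaving out rows within 1% of a listed gene's counts. In mouse these were ENSMUST00000167721 for Eef1a1 (662627 and 265705 reads, distance 0.14) and ENSMUST00000027438 for Eef2 (163049 and 68307 reads, distance 0.11). In HEK cells they were ENST00000545241.1 for EEF1A1 (14207 and 29463 reads, distance 0.057) and ENST00000568459.1 for EEF2 (6082 and 12441 reads, distance 0.047). The nearest to Rplp0 and RPLP0 lay at 0.048 and 0.020. The files do not pair these identifiers with names, and with 2 libraries the likeness is mainly one of abundance.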

How the data were processed

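Per the file headers, the deposited values are raw read counts for the whole transcript and, within it, for coding region, 5′ leader and 3′ trailer, in 1 file for each library. The authors deposited them unscaled. The submitters' processing notes list CASAVA 1.8, Bowtie2 2.0.6 and TopHat2 2.0.7, and mm10 and hg19 as builds, and tie no step to a tool. How reads were assigned to transcripts, under which annotation, was not given in the sources used here. Per the labels' protocols, footprints were ligated to a linker, circularized and amplified by PCR. No molecular identifiers are named, and intervals and floors therefore reflect counting error alone.

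The members and comparisons were chosen with earlier results of these data known. A part was used where both libraries of a pair give it a count. Ratios were scaled to the median coding region with at least 100 summed reads, with a prior of 0.5 scaled reads. Similar coding regions had summed reads (for levels, reads in that library) within 2-fold, leaving out the listed transcripts and, for ratios, rows repeating their counts. Intervals are Clopper-Pearson, or exact conditional intervals of an odds ratio for changes per coding read. A count of 0 was given a floor of 3 reads. Named genes are all listed members and the nearest coding regions, of which the first 2 genes' per species are printed by identifier. The planned list of other translation genes was not run because identifiers could not be paired with symbols. Calculations used Python 3.11.15, pandas 2.3.3, scipy 1.17.1 and, for TMM scaling, edgeR 4.0.16, and the scripts were tested on simulated data.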

Additional observations from a re-analysis of the deposited data

How the results depend on the processing

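No paired analysis was possible because single libraries per group form no replicate pairs. Counts of the 3 genes past 2-fold stayed at 0 in both directions and both pairs with total-count scaling, TMM scaling, a minimum of 500 reads and a 1.5-fold threshold. A value was taken as moved when it left its counting interval, which is narrow at these depths. Scaling to total counts put the log2 ratios of Eef1a1, Eef2 and Rplp0 at -0.49, -0.33 and -0.39 and those of EEF1A1, EEF2 and RPLP0 at 0.30, 0.20 and 0.23; it shifts all coding regions alike, by 0.047 in mouse and 0.20 in HEK cells. With a minimum of 500 reads Eef1a1 had -0.52, Eef2 -0.36, EEF1A1 0.055 and EEF2 -0.047, and with 1 read in each library Eef1a1 had -0.55, EEF1A1 0.15 and EEF2 0.054. Whole transcripts, at the coding scale, gave -0.38 for Eef1a1 and -0.28 for Eef2. The difference from similar coding regions was, with a 1.5-fold window, 0.11 for Eef1a1, 0.15 for Eef2, -0.073 for Rplp0 and -0.068 for EEF1A1. With a 4-fold window it was 0.080 for Eef1a1, 0.10 for Eef2 and -0.17 for Rplp0, and with identical counts taken once -0.12 for Rplp0. Per read of the whole transcript, leaders were 2.54-fold higher in Eef1a1 and 2.94-fold in Eef2, and the Eef1a1 trailer 1.53-fold.

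Shares of all transcript counts in place of coding counts were, with cycloheximide and emetine, 0.183% and 0.13% for Eef1a1, 0.0488% and 0.0389% for Eef2, and 0.0142% and 0.0109% for Rplp0. In input and bound they were 0.0822% and 0.101% for EEF1A1, 0.0347% and 0.0399% for EEF2, and 0.00485% and 0.00568% for RPLP0. With identical rows counted once the shares of coding counts were 0.445% and 0.361% for Eef1a1, 0.119% and 0.108% for Eef2, 0.0347% and 0.0302% for Rplp0, 0.267% and 0.281% for EEF1A1, 0.113% and 0.111% for EEF2, and 0.0158% and 0.0158% for RPLP0. The causes of these movements, where the denominator does not set them, were not tested. Restricting similar leaders and trailers to 500 reads, which was chosen after seeing the data, moved none of the 4 values it could be applied to. Depth limits the HEK leaders and trailers, which held between 0 and 57 reads.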
